A study of Mus musculus with 100 samples.

Results

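Cortex of mice homozygous for a frameshift allele of Myt1l was followed from the last day before birth, embryonic stage E18.5, to the day of birth (P0). The libraries were chosen by their age and genotype labels. They number 20 of the 100 libraries of the series and come from 11 animals, 5 at E18.5 and 6 at P0. Transcripts were counted by bulk RNA sequencing to ask how the cortex of these mutants changes over this step. The labels give the strain as C57BL/6J, while the study's methods describe editing and breeding in C57BL/6N. All 11 animals carried the deletion on both copies of the gene (HOM). The E18.5 group held 2 females and 3 males, of which 3 were in sequencing batch 1 and 2 in batch 3. The P0 group held 4 females and 2 males, of which 2 were in batch 1 and 4 in batch 3. Heterozygous (HET, 6 animals at each age) and wild-type animals (WT, 5 at E18.5 and 4 at P0) served to test whether a change with age differed by genotype. Some of their levels are given beside those of HOM.

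The allele is a germline deletion made by CRISPR/Cas9, so every cell of the animal carries it. The study reports no nonsense-mediated decay of the mutant transcript, so a loss of transcript cannot be used to check the allele. Whole cortex was sampled at E18.5 and prefrontal cortex at P0. Age, birth and the dissected area therefore cannot be told apart in any comparison of these groups, and "higher at P0" is used here for the whole contrast.

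MYT1L is a zinc finger transcription factor of postmitotic neurons that binds DNA at AAAGTT motifs and is known for the repression of non-neuronal genes. In the mouse cortex the production of neurons ends around birth. Radial glia, the stem cells that line the ventricle, and the intermediate progenitors that divide above them give way to the first astrocytes and oligodendrocyte precursors. Newborn neurons meanwhile settle in their layers, extend axons and begin to form synapses.

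The deleted bases and the start of the coding sequence are shown because they define the animals. The deletion covers chr12:29783649-29783655 of mm10 (plus strand) in exon 6 of Myt1l, a coding exon, and is 7 bases long. The letters are those of the mm10 reference, with the deleted bases in capitals.
Deleted bases: ATCGCAC
Wild-type coding start: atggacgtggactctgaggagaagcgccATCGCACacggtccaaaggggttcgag
HOM coding start: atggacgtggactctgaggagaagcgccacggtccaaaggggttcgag
Read from the first ATG of the transcript of 1187 residues, the first changed codon is 11 and the shifted frame meets a stop at codon 78. The next methionine codon in the original frame is codon 99.

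A library held 14.7 to 150 Mreads (megareads counted over all genes), and an animal 30.0 to 150 Mreads after its libraries were summed. The highest totals, 132 and 150 Mreads, belonged to the P0 animals 318 and 324, which are both of batch 1 and have 1 library each. The chi-square of counts per degree of freedom was 1.18 to 1.33 between libraries of the same animal (9 pairs) and 8.57 to 91.5 between animals of a group, so the animal was the replicate. The first principal component of the 11 animals took 34.8% of the variance and was tied to age (R2 of 0.777). The second took 25.5% and was tied to batch (R2 of 0.59). Levels are counts scaled to library size by TMM (CPM). Changes are log2 of P0 over E18.5 ± standard error (SE) from a fit with sex and batch as covariates, and an adjusted p under 0.05 counts as a call.

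The samples also differed in the levels of genes of neighbouring regions, and the cause was not tested. The striatum list (19 genes tested) had a score, the mean log2 CPM of its members, of 4.74 to 5.39 in the E18.5 animals of batch 1 and of 2.57 and 2.98 in those of batch 3, against 3.21 to 4.76 at P0. The thalamus score was likewise 3.70 to 4.42 and then 2.41 and 2.65 at E18.5, and 2.43 to 4.02 at P0. The labelled tissue was checked with its defining genes. Tbr1, a transcription factor of deep layer neurons, stood at 160.0 to 365 CPM over the 11 animals, and Cux2, a factor of upper layer neurons, at 175 to 355 CPM. The striatal dopamine receptor gene Drd1 reached 15.1 to 35.7 CPM and Tcf7l2, a thalamic regulator, 1.15 to 20.2 CPM. Some results are also given without the E18.5 animals of batch 3, 728 and 730. Both are male, so batch and sex go together in them.

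Myt1l itself did not change detectably. Its transcript (chr12:29528384-29923213, mm10) stood at 803, 887, 912, 918 and 1047 CPM in the E18.5 animals and at 789 to 1032 CPM (median 932) in the P0 animals, with full overlap of the groups. The log2 change was 0.02 ± 0.11 (adjusted p = 0.934), and an exact permutation of log2 CPM over all 462 arrangements gave a 2-sided p of 0.883. Scaled over all 32 animals, Myt1l stood at 787 to 1044.5 CPM in HOM at E18.5 and at 784 to 1031 CPM at P0. WT animals held 386 to 535 and 408 to 454 CPM, so the HOM and WT ranges did not overlap. HET animals held 486 to 812 and 526 to 630 CPM. The relatives of Myt1l were not called between the ages either, with log2 changes of −0.28 ± 0.11 for Myt1 (adjusted p = 0.09) and −0.32 ± 0.19 for St18 (adjusted p = 0.244).

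Between E18.5 and P0 the HOM cortex lost transcripts of cycling cells, intermediate progenitors, cholesterol synthesis and red blood cells, and of some genes of newborn neurons. It gained transcripts of astrocytes, oligodendrocyte precursors, some synaptic proteins and ion channels, clock genes and a few activity-dependent genes. Of 17768 genes tested, 1518 were called higher at P0 (8.54%) and 1582 lower (8.9%). Of those called, 645 rose and 206 fell at least 2-fold, so the larger changes were mostly rises. The P0 values lay wholly above the E18.5 values in 968 genes (5.45%) and wholly below in 1062 (5.98%), and of the called genes 787 and 843 did so. The median log2 change of all genes tested was −0.014. The number of calls depended on single animals, and it was 1086 without E18.5 animal 728, 1100 without 455, 1363 without P0 animal 318, 1681 without 670 and 1961 without 454. Within batch 1 it was 4785 and within batch 3 it was 1257. Without the deepest animals 318 and 324 it was 1181, and without 728 and 730 it was 1810.

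**Figure D1:**
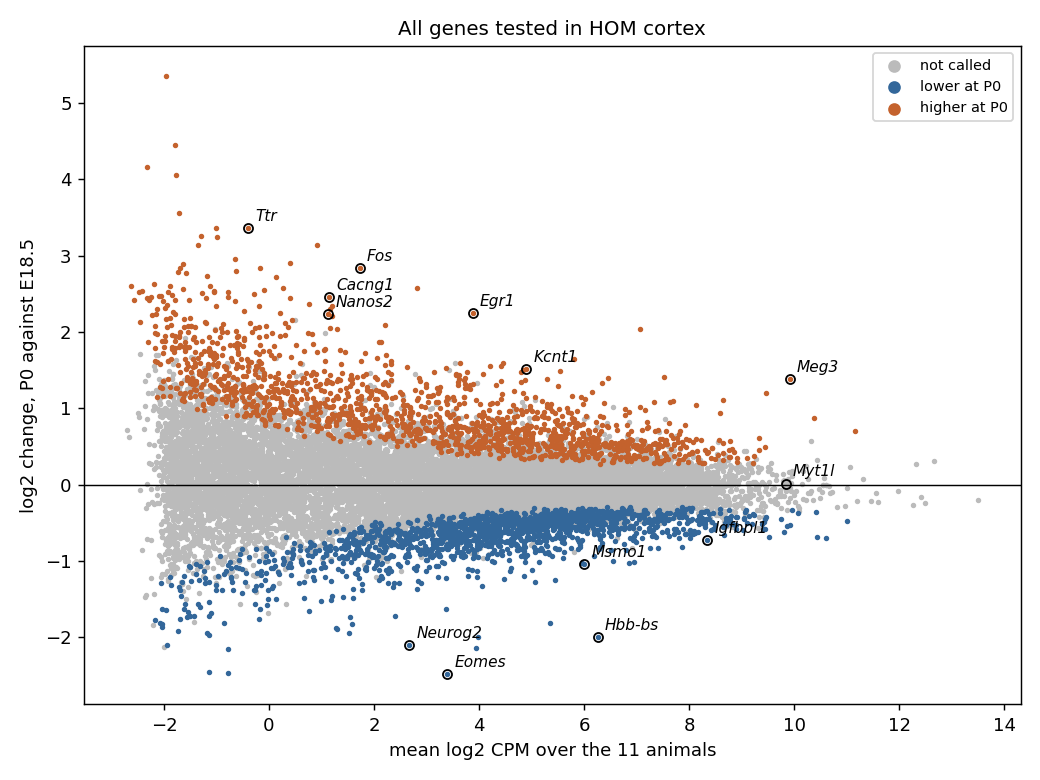
Log2 change from E18.5 to P0 (vertical axis) against the mean log2 CPM (horizontal axis) of each of the 17768 genes tested in HOM cortex (5 animals at E18.5, 6 at P0), with genes called higher or lower in colour. The 1518 calls above and 1582 below the line are similar in number, and the changes beyond 2-fold lie mostly above it.

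The largest rises were taken from genes expressed at a mean log2 CPM of at least 1 with no overlap of the groups. Their separation therefore follows from the choice. Fos (chr12:85473890-85477273), an immediate early transcription factor, stood at 0.535, 0.547, 1.23, 1.76 and 1.82 CPM at E18.5 and at 4.19 to 27.4 CPM (median 7.43) at P0. Its log2 change was 2.83 ± 0.58 (adjusted p = 0.0101), the widest of these rises, and every P0 animal lay above every E18.5 animal. Egr1 (chr18:34859823-34864984), another immediate early factor, stood at 3.05, 4.63, 6.34, 8.21 and 10.2 CPM and then at 10.95 to 80.5 CPM (median 34.8), a log2 change of 2.25 ± 0.50 (adjusted p = 0.0132, but up to 0.0592 without animal 728 or 318). The lowest P0 animal was only just above the highest E18.5 animal, and the P0 values were widely spread. Cacng1, a subunit of the muscle calcium channel, changed by 2.46 ± 0.44 (adjusted p = 0.00634), from 0.601, 0.796, 0.850, 0.937 and 1.04 CPM to 1.45 to 9.15 CPM (median 5.74). Col24a1, a fibrillar collagen, went from 0.519, 0.901, 1.21, 1.29 and 1.57 CPM to 2.82 to 7.52 CPM (median 4.63), without overlap (2.20 ± 0.32, adjusted p = 0.00358).

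Among the other large rises, Runx2, the transcription factor that directs bone formation, stood at 1.04, 1.37, 2.88, 3.92 and 4.64 CPM at E18.5 and at 6.05 to 8.79 CPM (median 7.20) at P0 (1.87 ± 0.29, adjusted p = 0.00428). Every P0 animal lay above every E18.5 animal. Nanos2, a germ cell RNA regulator, rose by 2.23 ± 0.31 (adjusted p = 0.0033), Fam107a, an actin-associated stress gene of astrocytes and radial glia, by 2.05 ± 0.41 (adjusted p = 0.00892), and Rtbdn, a riboflavin-binding protein, by 2.04 ± 0.34 (adjusted p = 0.00483). Ager, the receptor for advanced glycation end products, changed by 1.76 ± 0.42 (adjusted p = 0.0169, but up to 0.0584 without animal 454 or 455) and Itpr3, a calcium release channel, by 1.69 ± 0.38 (adjusted p = 0.0136, but up to 0.0552 without animal 455 or 670). Several of these genes overlap others on the opposite strand, and the strand setting of the counting was not given, so reads of a gene and its antisense partner could not be separated. This holds for Nanos2, Col24a1, Runx2 and Itpr3. It also holds for other genes named in this text, among them Myt1l, Eomes, Hopx, Emx2, Nrn1, Draxin, Doc2a and Grin1. Nptxr overlaps Npcd on the same strand.

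The largest falls were chosen in the same way, so their lack of overlap also follows from the choice. Neurog2 (chr3:127633135-127635631), the proneural factor that starts neuronal differentiation in cortical progenitors, stood at 6.41, 9.26, 18.9, 21.4 and 25.9 CPM at E18.5 and at 2.59 to 3.80 CPM (median 3.21) at P0. Its log2 change was −2.10 ± 0.24 (adjusted p = 0.00308), and every P0 animal lay below every E18.5 animal. Tfap2c, a transcription factor of basal progenitors, fell from 2.02, 4.45, 6.72, 6.83 and 6.88 CPM to 1.02 to 1.85 CPM (median 1.26) (−1.87 ± 0.27, adjusted p = 0.00361), again without overlap. Veph1 (chr3:66053558-66296837), a gene of ventricular zone cells, stood at 3.23, 5.77, 5.998, 7.28 and 7.66 CPM and then at 1.05 to 2.62 CPM (median 1.35) (−1.94 ± 0.27, adjusted p = 0.00328). Ptx3, a secreted pentraxin, lies within Veph1 on the opposite strand, so reads could be shared. Ptx3 stood at 7.71, 7.997, 9.56, 11.5 and 12.3 CPM at E18.5 and at 2.33 to 3.99 CPM (median 3.19) at P0, with a wide gap between the groups (−1.72 ± 0.16, adjusted p = 0.000699). Senp8, a NEDD8 protease, changed by −1.82 ± 0.36 (adjusted p = 0.00877) and Coa4, a cytochrome oxidase assembly factor, by −1.46 ± 0.24 (adjusted p = 0.00477). Nts, the neuropeptide neurotensin, changed by −1.62 ± 0.40 (adjusted p = 0.0198, but up to 0.0572 with 1 animal left out, the call being lost for 3 of the 11 animals), and the zinc finger gene Zfp493 by −1.39 ± 0.37 (adjusted p = 0.0247, but up to 0.071 with 1 animal left out, the call being lost for 3 of the 11 animals).

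Genes of dividing cells fell as a group. Of 42 cell cycle genes tested, 27 were called lower at P0 and none higher, against 8.9% and 8.54% of all genes. Their median log2 change was −0.57, against −0.014 over all genes. The list score was 3.86 to 4.25 at E18.5 and 3.34 to 3.59 at P0, so the groups did not overlap. Cenpf, a kinetochore protein of dividing cells, stood at 21.3, 21.8, 21.9, 30.2 and 30.8 CPM at E18.5 and at 11.9 to 16.4 CPM (median 13.5) at P0 (−0.93 ± 0.14, adjusted p = 0.00396). Mcm3, a subunit of the replicative helicase, stood at 18.6, 20.9, 22.6, 25.3 and 26.8 CPM and then at 9.80 to 17.5 CPM (median 12.6) (−0.76 ± 0.14, adjusted p = 0.00717). Both genes were lower in every P0 animal than in any E18.5 animal. Cdca7, a MYC target of cycling cells, changed by −0.85 ± 0.13 (adjusted p = 0.00428), Ccnb1, the mitotic cyclin B1, by −0.73 ± 0.14 (adjusted p = 0.00846), and Rrm2, which supplies deoxynucleotides, by −0.64 ± 0.11 (adjusted p = 0.00487). Within batches 1 and 3 the list medians were −0.56 and −0.68, with 21 and 19 members lower. With 1 animal left out, 12 to 29 members were lower. In bulk tissue fewer cells of a type and less RNA per cell cannot be told apart, here and in every group that follows.

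Promoters of the cell cycle genes are shown because so many of them moved together. Each is the 250 bases before the RefSeq start site in GRCm38.p6, on the gene's strand and 5′ to 3′, with each CCAAT box in capitals, also where it reads on the opposite strand. CCAAT is bound by the NF-Y factor and is common in promoters of mitotic genes. Cenpf lies on the minus strand with its window at chr1:189688087-189688336, and Mcm3 on the minus strand with its window at chr1:20820313-20820562.
Cenpf: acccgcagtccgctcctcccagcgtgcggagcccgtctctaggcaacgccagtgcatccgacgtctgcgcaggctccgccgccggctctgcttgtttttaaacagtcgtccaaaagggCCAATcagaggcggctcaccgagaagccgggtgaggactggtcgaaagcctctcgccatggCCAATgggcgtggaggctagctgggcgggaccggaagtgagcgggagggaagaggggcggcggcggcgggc
Mcm3: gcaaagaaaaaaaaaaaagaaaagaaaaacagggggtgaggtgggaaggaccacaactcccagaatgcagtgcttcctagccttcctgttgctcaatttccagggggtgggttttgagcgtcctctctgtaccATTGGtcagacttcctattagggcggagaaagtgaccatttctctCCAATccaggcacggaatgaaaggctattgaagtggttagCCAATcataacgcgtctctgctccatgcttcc
Of the 42 genes, 35 were matched to 36 windows of 300 bases (250 before the start and 50 after it). CCAAT was found on either strand in 27 windows (75%), against 37.4% of all 32851 promoter windows. TTTGAA, the cell cycle homology region, was in 44.4% against 17.9%, and AAAGTT, the MYT1L motif, in 11.1% against 14.1%. These are matches of letters only.

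Genes of progenitors that make neurons were also lower at P0. Of 24 genes of intermediate progenitors and newborn neurons, 13 were called lower and none higher (median −0.53), against 8.9% and 8.54% of all genes. The score was 5.33 to 5.84 at E18.5 and 4.79 to 5.06 at P0, without overlap. Eomes (chr9:118478212-118486132), the factor that defines intermediate progenitors, stood at 7.45, 18.9, 30.9, 53.2 and 56.2 CPM at E18.5 and at 2.88 to 7.80 CPM (median 4.81) at P0. Its log2 change was −2.48 ± 0.31 (adjusted p = 0.00308), but the groups overlapped because the lowest E18.5 animal lay within the P0 range. Insm1, a zinc finger factor that promotes the birth of basal progenitors, went from 35.7, 36.5, 46.1, 48.2 and 50.3 CPM to 17.1 to 26.6 CPM (median 21.6) without overlap (−0.82 ± 0.11, adjusted p = 0.00328). Nrn1, a membrane-anchored neuritin, changed by −1.19 ± 0.16 (adjusted p = 0.00328) and Igfbpl1, a gene of newborn neurons, by −0.72 ± 0.12 (adjusted p = 0.0046). Dcx, the microtubule protein of migrating neurons, was at −0.06 ± 0.14 (adjusted p = 0.789) and not called. With 1 animal left out, 10 to 14 members were lower.

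Radial glial genes were mixed. Of 31 tested, 8 were called lower and 2 higher (median −0.13), against 8.9% and 8.54% of all genes. The scores overlapped (5.22 to 5.54 at E18.5, 4.87 to 5.28 at P0). Hopx, which marks radial glia of the outer zone and late neural stem cells, stood at 4.49, 5.76, 6.46, 7.04 and 7.43 CPM and then at 2.03 to 3.80 CPM (median 2.87) (−1.05 ± 0.22, adjusted p = 0.0101), without overlap. Pax6, the regulator of cortical radial glia, stood at 20.1, 24.1, 25.2, 25.4 and 30.3 CPM at E18.5 and at 9.64 to 18.3 CPM (median 15.1) at P0, a log2 change of −0.60 ± 0.16 (adjusted p = 0.0255, but up to 0.0816 with 1 animal left out, the call being lost for 6 of the 11 animals). Vim, the intermediate filament of radial glia, changed by −0.67 ± 0.15 (adjusted p = 0.0126, but 0.0548 without animal 728) and Emx2, which patterns the cortex, by −0.70 ± 0.16 (adjusted p = 0.0132, but 0.0539 without animal 728). Sox2, Hes5 and Fabp7, stem cell genes that radial glia share with young astrocytes, were at −0.22 ± 0.17, 0.29 ± 0.24 and −0.13 ± 0.21 and not called (adjusted p = 0.356, adjusted p = 0.407 and adjusted p = 0.695). Without the 2 deepest animals the median was −0.029, with 5 genes lower and 2 higher.

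Of 17 fetal RNA-binding and chromatin genes, 4 were called lower and 2 higher (median −0.12), against 8.9% and 8.54% of all genes. Uhrf1, which keeps DNA methylation through replication, stood at 26.1, 28.2, 29.00, 32.1 and 33.8 CPM and then at 11.5 to 16.3 CPM (median 13.1), without overlap (−1.02 ± 0.13, adjusted p = 0.00308). Plagl1, an imprinted zinc finger factor of growth, changed by −0.84 ± 0.15 (adjusted p = 0.00638). The fetal mRNA-binding proteins Igf2bp1 and Igf2bp3 changed by −0.62 ± 0.16 (adjusted p = 0.0226, but up to 0.0737 without animal 728 or 670) and −0.45 ± 0.11 (adjusted p = 0.0218, but up to 0.0893 with 1 animal left out, the call being lost for 5 of the 11 animals). The imprinted noncoding RNA Meg3 went the other way, by 1.38 ± 0.34 (adjusted p = 0.018, but up to 0.0531 without animal 728 or 318).

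**Figure D2:**
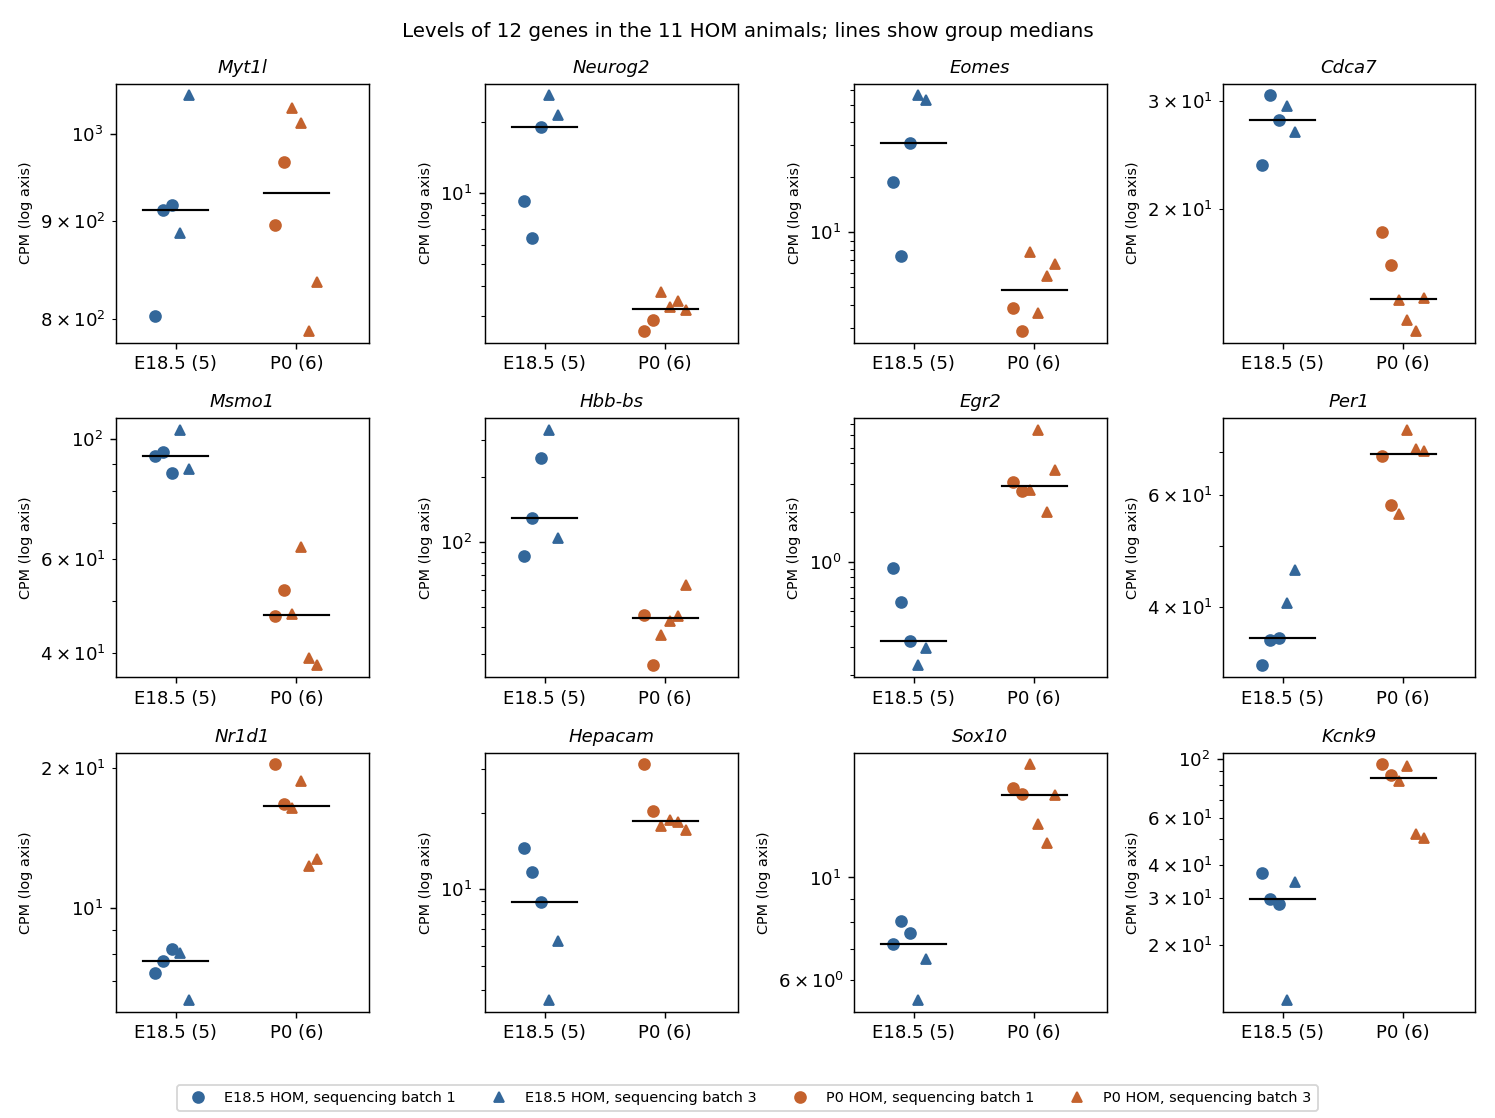
Level in CPM (log axis) of 12 genes in each HOM animal at E18.5 (5 animals, blue) and P0 (6 animals, orange), with circles for sequencing batch 1, triangles for batch 3 and a line at the group median. The ages overlap in Myt1l and Eomes and are apart in the other 10 genes, lower at P0 in Neurog2, Cdca7, Msmo1 and Hbb-bs and higher in Egr2, Per1, Nr1d1, Hepacam, Sox10 and Kcnk9.

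Genes of layer neurons were called in small numbers, where 8.54% of all genes were higher and 8.9% lower. The deep layer list had 4 genes lower and 1 higher of 21 (median −0.15), and its scores did not overlap (5.86 to 6.14 at E18.5, 5.67 to 5.82 at P0). Bhlhe22, a factor of projection neurons and sensory areas, stood at 125, 154, 166, 180.5 and 228 CPM and then at 62.3 to 118 CPM (median 85.7) (−1.02 ± 0.20, adjusted p = 0.00844). Every P0 animal lay below every E18.5 animal. The identity factors Bcl11b, Fezf2 and Tbr1 were at −0.30 ± 0.18, −0.14 ± 0.22 and −0.15 ± 0.15, none called (adjusted p = 0.256, adjusted p = 0.674 and adjusted p = 0.522). Of the nuclear factor I genes, which drive late neuronal and astrocyte differentiation, Nfia changed by −0.50 ± 0.12 (adjusted p = 0.0178, but up to 0.0515 without animal 455 or 324) and Nfib by −0.58 ± 0.16 (adjusted p = 0.0295, but up to 0.0823 with 1 animal left out, the call being lost for 5 of the 11 animals). Without animals 728 and 730 none of the deep layer genes was called.

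Of 23 upper layer genes, 2 were higher and 1 lower (median 0.024), against 8.54% and 8.9% of all genes. Cdh13, a cadherin anchored in the membrane, stood at 188, 189.9, 197, 202 and 223 CPM and then at 266 to 343 CPM (median 274) (0.49 ± 0.10, adjusted p = 0.0102), and Plxnd1, a semaphorin receptor, changed by 0.82 ± 0.20 (adjusted p = 0.0169, but 0.071 without animal 728). Cux2 and Rorb, which define upper layer neurons, were at −0.22 ± 0.19 and 0.13 ± 0.27, neither called (adjusted p = 0.434 and adjusted p = 0.764). Subplate genes, of the earliest born neurons below the cortical plate, had 3 higher and 1 lower of 15 (median 0.097). Ccn2, a matricellular protein of the subplate, changed by 0.60 ± 0.15 (adjusted p = 0.0193, but 0.0613 without animal 728), Cplx3, a complexin, by 1.40 ± 0.41 (adjusted p = 0.0335, but up to 0.126 with 1 animal left out, the call being lost for 6 of the 11 animals), and Lpar1, a lysophosphatidic acid receptor, by −1.12 ± 0.24 (adjusted p = 0.011). The subplate median was −0.25 within batch 1 and 0.41 within batch 3.

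Cajal-Retzius neurons, the short-lived cells of the marginal zone, had 6 of 13 genes lower and none higher (median −0.59). Over all genes 8.9% were lower and 8.54% higher. Nhlh2, a basic helix-loop-helix factor, stood at 7.79, 12.8, 15.01, 16.1 and 18.3 CPM and then at 5.94 to 7.67 CPM (median 6.42) (−1.06 ± 0.20, adjusted p = 0.00725), and Ndnf, a secreted neurotrophic factor, at 27.3, 31.2, 42.7, 49.00 and 52.8 and then 17.8 to 24.7 CPM (median 20.9) (−0.94 ± 0.19, adjusted p = 0.00903). Neither overlapped. The chemokine receptor genes Cxcr4 and Ackr3 changed by −1.02 ± 0.21 (adjusted p = 0.00958) and −0.59 ± 0.15 (adjusted p = 0.0208, but up to 0.0915 with 1 animal left out, the call being lost for 3 of the 11 animals). Trp73, a defining gene, changed by −0.80 ± 0.18 (adjusted p = 0.0144, but 0.07 without animal 728), and Reln, the layering signal these cells secrete, by −0.49 ± 0.13 (adjusted p = 0.0226, but up to 0.0815 with 1 animal left out, the call being lost for 5 of the 11 animals). The group's score overlapped (3.40 to 4.77 at E18.5, 3.37 to 3.91 at P0). Its median was −0.95 within batch 1, with 11 genes lower, and −0.34 within batch 3, with none called.

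Of 29 interneuron genes, 2 were lower and none higher (median −0.044), against 8.9% and 8.54% of all genes. The direction turned with the batch (median −0.28 and 7 lower within batch 1, 0.21 and 6 higher within batch 3). Gad1 and Gad2, the enzymes of GABA synthesis, were at 0.51 ± 0.34 (adjusted p = 0.308) and 0.51 ± 0.21 (adjusted p = 0.109), and Dlx1, a factor of interneuron precursors, at 0.14 ± 0.14 (adjusted p = 0.513). The batch turn moves with the striatum score above. With that score as a further covariate the interneuron median was −0.17, with 2 genes higher and 5 lower. The cause of the turn was not tested. Of 39 axon growth genes, 4 were lower and none higher (median −0.057), so the share lower was close to the 8.9% of all genes. Draxin, a repulsive cue for commissural axons, stood at 169, 198, 205, 227 and 274 CPM and then at 101 to 167 CPM (median 131) (−0.65 ± 0.13, adjusted p = 0.00978), without overlap. Dpysl2, a collapsin response mediator, changed by −0.51 ± 0.11 (adjusted p = 0.0123, but 0.0502 without animal 455), and Dcc and Robo2, the receptors of netrin and slit, by −0.49 ± 0.15 (adjusted p = 0.0383, but up to 0.129 with 1 animal left out, the call being lost for 8 of the 11 animals) and −0.48 ± 0.16 (adjusted p = 0.0492, but up to 0.173 with 1 animal left out, the call being lost for 8 of the 11 animals).

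A few synaptic genes rose while most members of these lists were not called. The presynapse list had 8 genes higher and 1 lower of 38 (median 0.18), and the glutamatergic postsynapse list 6 higher and none lower of 42 (median 0.16). Over all genes the shares were 8.54% higher and 8.9% lower. Grin1 (chr2:25291181-25319187), the obligatory subunit of NMDA receptors, stood at 56.5, 72.3, 75.7, 82.2 and 91.3 CPM and then at 104 to 140.2 CPM (median 125) (0.78 ± 0.12, adjusted p = 0.00398). Nptxr, the neuronal pentraxin receptor that clusters AMPA receptors, went from 67.8, 85.7, 98.8, 113 and 131 CPM to 173 to 221 CPM (median 196) (0.98 ± 0.16, adjusted p = 0.00445), and Nrgn, a calmodulin-binding protein of dendritic spines, changed by 0.99 ± 0.21 (adjusted p = 0.0103). In these 3 genes every P0 animal lay above every E18.5 animal. Vamp1, a SNARE protein of synaptic vesicles that overlaps Tapbpl on the other strand, stood at 6.05, 6.99, 7.50, 8.44 and 9.74 CPM and then at 13.03 to 20.4 CPM (median 15.6) (1.12 ± 0.17, adjusted p = 0.00428). Doc2a, a calcium sensor of spontaneous release, changed by 0.74 ± 0.14 (adjusted p = 0.00718), Stx1a, the syntaxin of the release machinery, by 0.47 ± 0.095 (adjusted p = 0.00959), and Cplx2, a complexin, by 0.61 ± 0.13 (adjusted p = 0.0124). Syt4, a synaptotagmin of dense-core vesicles, was the presynaptic gene that fell, at a log2 change of −0.45 ± 0.11 (adjusted p = 0.0169, but 0.0824 without animal 455). Scores of both lists overlapped between the ages.

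Among genes of channels and inhibitory receptors a minority was called, beside 8.54% higher and 8.9% lower of all genes. Of 49 potassium channel genes, 13 were higher and 1 lower (median 0.27). Kcnk9, a leak channel, stood at 12.4, 28.6, 29.7, 34.5 and 37.4 CPM and then at 50.6 to 95.6 CPM (median 84.97) (1.48 ± 0.27, adjusted p = 0.00712), and Kcnj4, an inward rectifier, at 3.43, 3.96, 7.09, 7.59 and 10.1 and then 11.6 to 15.3 CPM (median 14.00) (1.22 ± 0.21, adjusted p = 0.0061). Both genes were higher in every P0 animal. Kcnt1, a sodium-activated channel, changed by 1.51 ± 0.24 (adjusted p = 0.00428) with overlap, and Kcnj11, of the ATP-sensitive channel, fell by 0.68 ± 0.16 on the log2 scale (adjusted p = 0.0169, but up to 0.0613 without animal 728 or 670). Of 14 sodium channel genes 2 were higher and none lower (median 0.30), of 15 calcium channel genes 3 and none (0.23), and of 22 genes of GABA and glycine receptors and chloride transporters 3 and none (0.15). The median of the latter turned with the batch, at −0.056 within batch 1 (3 higher and 2 lower) and 0.43 within batch 3 (4 higher). Gabra5, the alpha 5 subunit of GABA-A receptors, stood at 32.7, 35.1, 48.9, 54.6 and 56.4 CPM and then at 70.8 to 92.4 CPM (median 75.96) (0.78 ± 0.15, adjusted p = 0.00824), without overlap. Scn1a, the sodium channel of fast-spiking interneurons, changed by 0.59 ± 0.17 (adjusted p = 0.0358, but up to 0.0829 with 1 animal left out, the call being lost for 6 of the 11 animals), and Cacna1a, the P/Q-type calcium channel, by 0.60 ± 0.15 (adjusted p = 0.022, but up to 0.0728 with 1 animal left out, the call being lost for 4 of the 11 animals). Slc12a5, the chloride exporter whose rise makes GABA inhibitory, was at 0.89 ± 0.34 and not called (adjusted p = 0.0853). With 1 animal left out, 3 to 13 potassium channel genes were higher.

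Immediate early genes, which neurons switch on within minutes of activity, stood higher at P0 as a score (2.20 to 3.00 at E18.5, 3.02 to 4.07 at P0), with a small gap. Of 25 tested, 5 were called higher and 1 lower (median 0.30), against 8.54% and 8.9% of all genes. Egr2, a zinc finger factor also used in myelinating glia, stood at 0.230, 0.295, 0.324, 0.561 and 0.912 CPM and then at 2.01 to 6.41 CPM (median 2.91) (2.44 ± 0.31, adjusted p = 0.00308), and Nr4a1, an orphan nuclear receptor, at 4.12, 6.74, 6.99, 7.10 and 8.09 and then 14.6 to 48.6 CPM (median 18.8) (1.38 ± 0.29, adjusted p = 0.0109). The P0 animals were above the E18.5 animals in both. Arc, which controls AMPA receptor uptake, was at 0.70 ± 0.49 and not called (adjusted p = 0.325), and the antiproliferative gene Btg2 fell by 0.53 ± 0.13 on the log2 scale (adjusted p = 0.0205, but up to 0.0583 with 1 animal left out, the call being lost for 4 of the 11 animals). The time from death or delivery to dissection was not given in the sources used here. Without animals 728 and 730, 1 of the 25 was called.

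**Figure D3:**
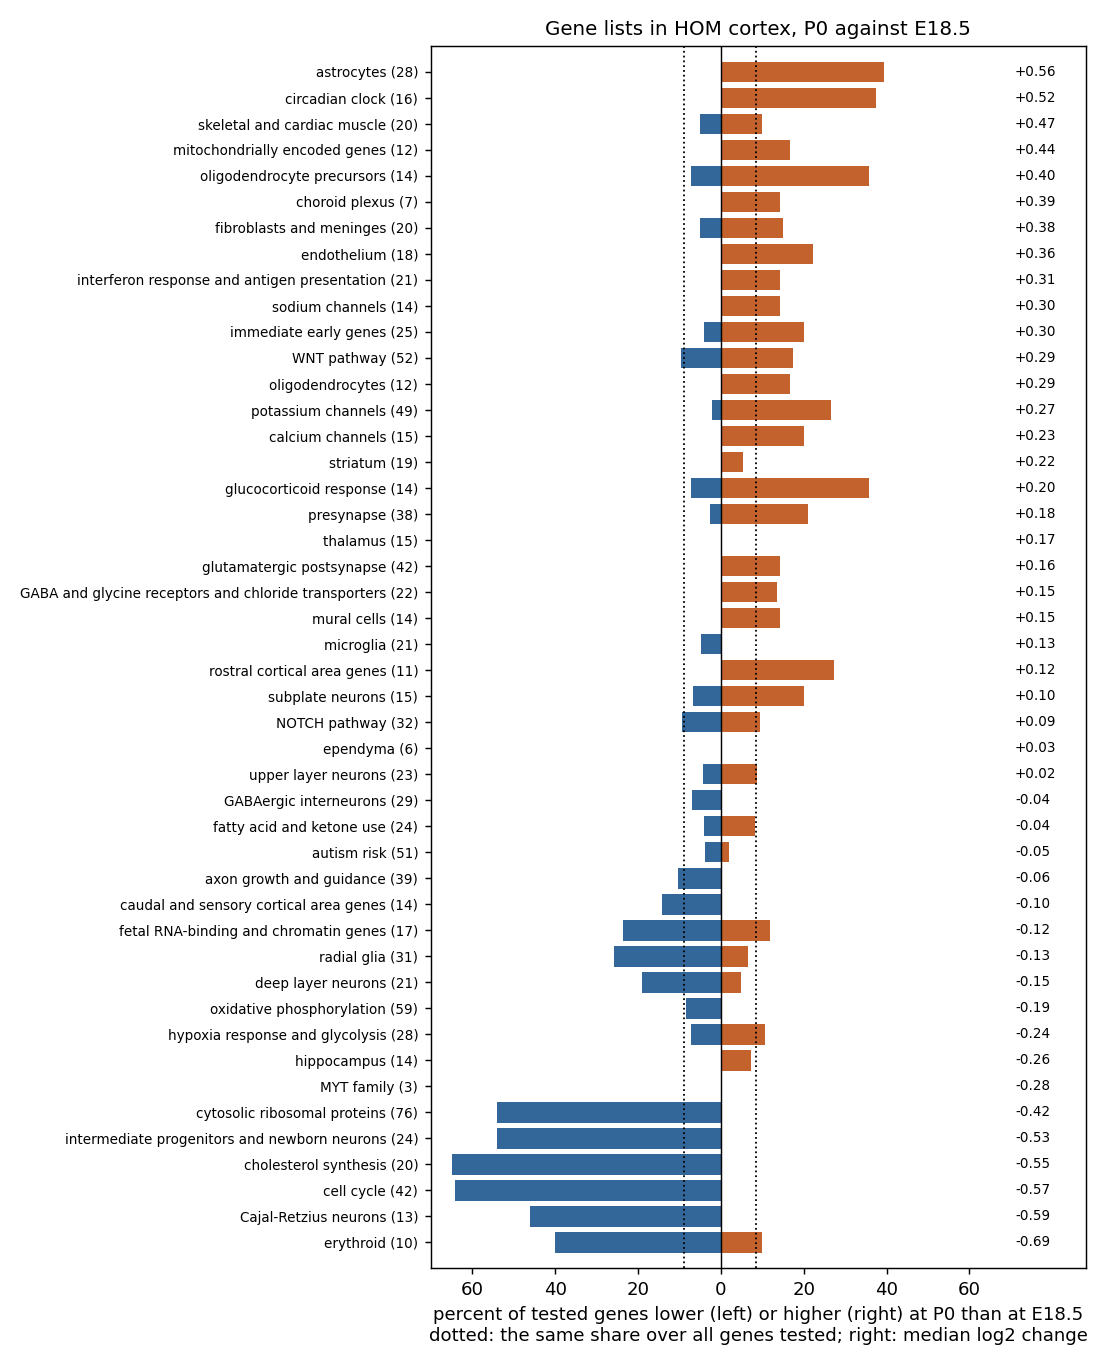
Percent of the tested genes of each of the 46 lists that were called lower (blue, to the left) or higher (orange, to the right) at P0 than at E18.5 in HOM cortex, with the number tested beside each name and the median log2 change at the right. Dotted lines mark the share over all genes, 8.9% lower and 8.54% higher. The cholesterol, cell cycle, intermediate progenitor and ribosomal lists reach furthest left, and the astrocyte and clock lists furthest right.

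Astrocyte genes rose in the largest number among the glia. Of 28 tested, 11 were called higher and none lower (median 0.56), against 8.54% and 8.9% of all genes. The scores nevertheless overlapped (3.45 to 4.74 at E18.5, 4.18 to 4.98 at P0). Hepacam, the adhesion molecule of astrocyte contacts, stood at 3.66, 6.27, 8.93, 11.8 and 14.6 CPM and then at 17.2 to 31.2 CPM (median 18.6) (1.40 ± 0.22, adjusted p = 0.00428). Ntsr2, an astrocytic neurotensin receptor, went from 1.79, 2.32, 2.87, 3.20 and 3.71 CPM to 3.89 to 8.66 CPM (median 5.82) (1.24 ± 0.26, adjusted p = 0.0102). Neither gene overlapped between the groups. The metallothionein genes Mt1 and Mt2, which bind zinc and also answer to glucocorticoids, changed by 1.15 ± 0.21 (adjusted p = 0.00691) and 1.37 ± 0.23 (adjusted p = 0.00511). Aqp4, the water channel of end-feet, changed by 1.48 ± 0.39 (adjusted p = 0.0232, but up to 0.0872 without animal 728 or 730), and Aldh1l1, a folate enzyme that marks astrocytes, by 0.76 ± 0.19 (adjusted p = 0.0189, but up to 0.0737 without animal 728 or 318). Gfap was at 1.17 ± 0.54 and not called (adjusted p = 0.141). With 1 animal left out, 4 to 11 members were higher.

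The oligodendrocyte lineage had risen in part. Of 14 precursor genes, 5 were higher and 1 lower (median 0.40), against 8.54% and 8.9% of all genes. Sox10 (chr15:79154908-79165240), the factor that specifies the lineage, stood at 5.42, 6.64, 7.18, 7.57 and 8.03 CPM at E18.5 and at 11.9 to 17.6 CPM (median 15.1) at P0 (1.15 ± 0.16, adjusted p = 0.00327). Bcan, the proteoglycan brevican, went from 30.3, 40.4, 45.7, 53.97 and 68.1 CPM to 75.1 to 149.9 CPM (median 98.8) (1.22 ± 0.19, adjusted p = 0.00428), and Pdgfra, the growth factor receptor of precursors that fibroblasts share, from 27.9, 39.7, 40.1, 48.6 and 52.9 CPM to 60.4 to 82.9 CPM (median 70.7) (0.82 ± 0.15, adjusted p = 0.00761). All 3 were higher in every P0 animal. Of 12 genes of later oligodendrocytes, 2 were higher and none lower (median 0.29), with Mal, a myelin proteolipid, at 1.31 ± 0.31 (adjusted p = 0.0156, but up to 0.0544 without animal 455 or 728). Mbp, a main protein of myelin, was at 0.03 ± 0.15 and not called (adjusted p = 0.911). The precursor median was 0.17 within batch 1 and 0.67 within batch 3, and the oligodendrocyte median −0.0043 and 0.60.

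Of 21 microglial genes, 1 was lower and none higher (median 0.13), against 8.9% and 8.54% of all genes. It was Sall1, a factor of microglial identity that neural progenitors also express (−0.45 ± 0.13, adjusted p = 0.03, but up to 0.0899 with 1 animal left out, the call being lost for 6 of the 11 animals). Cx3cr1, the fractalkine receptor, was at −0.10 ± 0.16 (adjusted p = 0.7). Of 18 endothelial genes 4 were higher (median 0.36), and of 14 mural cell genes 2 (median 0.15), none lower. The endothelial calls depended on the animals included. Within batch 1, 3 endothelial genes were higher and 1 lower, and within batch 3 none was called. Without both E18.5 animals of batch 3, 1 was higher, and with 1 animal left out 1 to 7 were. Tie1, an endothelial receptor, changed by 0.71 ± 0.15 (adjusted p = 0.0102), and Cspg4, the proteoglycan of pericytes that oligodendrocyte precursors share, by 0.52 ± 0.14 (adjusted p = 0.027, but up to 0.0927 with 1 animal left out, the call being lost for 4 of the 11 animals).

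Red blood cell genes were lower at P0, and the scores did not overlap (4.16 to 5.23 at E18.5, 3.48 to 4.11 at P0). Of 10 tested, 4 were lower and 1 higher (median −0.69), against 8.9% and 8.54% of all genes. The 4 are globin genes. Hbb-bs, an adult beta globin, stood at 86.2, 105, 129.6, 247 and 333 CPM and then at 26.6 to 62.8 CPM (median 44.1) (−1.995 ± 0.38, adjusted p = 0.00771). Hbb-bt changed by −2.14 ± 0.38 (adjusted p = 0.00634), and the alpha globins Hba-a1 and Hba-a2 by −1.81 ± 0.41 (adjusted p = 0.0136, but 0.0573 without animal 728) and −1.998 ± 0.44 (adjusted p = 0.0127, but 0.0568 without animal 728). Each pair is nearly identical in sequence, so the split of reads within a pair is uncertain. Tfrc, the transferrin receptor, which brain endothelium and neurons also use, was the gene that rose (0.71 ± 0.22, adjusted p = 0.0417, but up to 0.144 with 1 animal left out, the call being lost for 8 of the 11 animals).

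Genes of tissue next to the cortex were looked at because the dissections differ. Of 20 fibroblast and meninges genes 3 were higher and 1 lower (median 0.38), of 19 striatal genes 1 was higher (0.22), and of 15 thalamic genes none was called (0.17). Over all genes 8.54% were higher and 8.9% lower, so the striatal share was no larger than that of all genes. The striatum median was −0.54 within batch 1 and 1.11 within batch 3. Rgs9, a regulator of G protein signalling in striatal neurons, was the striatal gene called (0.76 ± 0.15, adjusted p = 0.00959). Of 14 hippocampal genes 1 was higher (median −0.26), of 7 choroid plexus genes 1 was higher (0.39), and of 6 ependymal genes none was called (0.034). Ttr, the thyroid hormone carrier made by the choroid plexus, stood at 0.0535, 0.432, 0.701, 1.22 and 1.64 CPM at E18.5. At P0 it stood at 0.201 to 37.3 CPM (median 0.366), and P0 animal 324 held the highest value. Its log2 change was 3.36 ± 1.00 (adjusted p = 0.0375, but up to 0.237 with 1 animal left out, the call being lost for 6 of the 11 animals). The median had opposite signs within the batches in 15 of the 46 lists. With the striatum score as a further covariate, 4458 genes were called over all.

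Areal identity was compared in the same way, since prefrontal cortex is rostral. Of 11 genes of rostral cortex 3 were higher and none lower (median 0.12), and of 14 genes of caudal and sensory areas 2 were lower and none higher (median −0.10). The shares over all genes were 8.54% higher and 8.9% lower. Within batch 1 the rostral median was 0.017 (3 higher and 2 lower) and the caudal median −0.31 (4 lower). Within batch 3 they were 0.39 (3 higher) and 0.090 (1 higher and 4 lower), so the caudal median changed sign. Etv4, an FGF-induced factor of the rostral cortex, stood at 7.87, 8.85, 9.23, 9.67 and 11.1 CPM and then at 12.6 to 18.9 CPM (median 15.8) (0.77 ± 0.17, adjusted p = 0.0117), without overlap. Fgfr3, an FGF receptor, changed by 0.40 ± 0.12 (adjusted p = 0.0445, but up to 0.125 with 1 animal left out, the call being lost for 9 of the 11 animals), and Spry1, an FGF feedback inhibitor, by 0.64 ± 0.20 (adjusted p = 0.0448, but up to 0.141 with 1 animal left out, the call being lost for 10 of the 11 animals). The caudal genes lower at P0 were Bhlhe22 and Emx2, given above.

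Cholesterol synthesis fell along the pathway. Of 20 genes tested, 13 were called lower and none higher, against 8.9% and 8.54% of all genes. All 20 had a negative change (median −0.55), and the scores did not overlap (6.65 to 6.98 at E18.5, 6.09 to 6.59 at P0). Msmo1 (chr8:64718139-64733792), the sterol C4-methyl oxidase, stood at 86.5, 88.01, 93.02, 94.8 and 104 CPM at E18.5 and at 37.95 to 62.95 CPM (median 47.1) at P0 (−1.03 ± 0.15, adjusted p = 0.00342). Idi1, which makes the isoprenoid unit dimethylallyl pyrophosphate, went from 18.96, 20.1, 25.04, 25.4 and 25.7 CPM to 9.55 to 16.2 CPM (median 12.2) (−0.79 ± 0.13, adjusted p = 0.00527). Both were lower in every P0 animal. Stard4, a cytosolic sterol carrier, changed by −0.86 ± 0.16 (adjusted p = 0.00749), Fdft1, the squalene synthase, by −0.70 ± 0.13 (adjusted p = 0.00639), and Cyp51, the lanosterol demethylase, by −0.68 ± 0.13 (adjusted p = 0.00795). Within batches 1 and 3 the medians were −0.49 and −0.66, with 13 and 4 genes lower, and 6 to 15 were lower with 1 animal left out. The promoter of Msmo1 is shown because it changed most in this pathway (minus strand, window chr8:64733579-64733828, CCAAT boxes in capitals).
Msmo1: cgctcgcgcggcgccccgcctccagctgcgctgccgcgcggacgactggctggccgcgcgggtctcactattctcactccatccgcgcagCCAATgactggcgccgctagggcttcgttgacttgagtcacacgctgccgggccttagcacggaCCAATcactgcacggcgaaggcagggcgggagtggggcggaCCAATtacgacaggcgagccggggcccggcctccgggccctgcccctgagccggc
CCAAT was in 12 of the 15 windows matched to 13 of the 20 genes (80%), against 37.4% of all windows. The sterol regulatory element was in none of the 15, against 0.0913% of all windows.

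Clock genes were higher at P0. All 16 genes tested had a positive change (median 0.52), of which 6 were called, beside 8.54% of all genes called higher. The scores did not overlap (3.68 to 3.77 at E18.5, 3.99 to 4.46 at P0). Bhlhe40 (chr6:108660629-108666925), a repressor of CLOCK and BMAL1, stood at 13.8, 18.7, 20.4, 21.5 and 21.7 CPM and then at 38.3 to 50.9 CPM (median 42.4) (1.13 ± 0.14, adjusted p = 0.00308). Nr1d1, the nuclear receptor REV-ERB alpha, which overlaps Thra on the other strand, went from 6.37, 7.28, 7.71, 8.04 and 8.20 CPM to 12.3 to 20.3 CPM (median 16.6) (1.15 ± 0.17, adjusted p = 0.00398). Per1, a period gene that light and glucocorticoids induce, stood at 32.5, 35.6, 35.8, 40.7 and 45.7 CPM and then at 56.01 to 75.8 CPM (median 69.6) (0.73 ± 0.12, adjusted p = 0.00487). All 3 were higher in every P0 animal than in any E18.5 animal. Cry2, a cryptochrome, changed by 0.54 ± 0.12 (adjusted p = 0.0127), and Ciart, a repressor of CLOCK and BMAL1, by 1.20 ± 0.30 (adjusted p = 0.0191, but up to 0.0647 without animal 455 or 318). Within batches 1 and 3 the medians were 0.74 and 0.45. The hour of dissection was not given in the sources used here, so age and time of day cannot be told apart.

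The E-box CACGTG, which CLOCK and BMAL1 bind, is in capitals in the promoters of Ciart (minus strand, window chr3:95882229-95882478) and Per1 (plus strand, window chr11:69098699-69098948), shown as members with such a match.
Ciart: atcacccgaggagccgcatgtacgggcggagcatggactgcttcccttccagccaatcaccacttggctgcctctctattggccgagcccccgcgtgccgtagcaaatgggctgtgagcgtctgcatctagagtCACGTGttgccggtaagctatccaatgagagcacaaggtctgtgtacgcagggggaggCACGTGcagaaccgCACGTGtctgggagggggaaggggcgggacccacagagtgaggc
Per1: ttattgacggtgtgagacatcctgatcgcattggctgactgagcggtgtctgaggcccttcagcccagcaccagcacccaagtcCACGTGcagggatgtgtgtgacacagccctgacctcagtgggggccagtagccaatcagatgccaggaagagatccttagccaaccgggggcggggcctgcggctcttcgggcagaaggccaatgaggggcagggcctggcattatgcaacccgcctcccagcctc
CACGTG was in 6 of the 19 windows matched to 14 of the 17 clock genes listed (31.6%), against 7.15% of all windows. CCAAT was in 73.7% of them.

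Genes that answer to glucocorticoids, the stress hormones that surge around birth, were also higher as a score (3.71 to 4.11 at E18.5, 4.26 to 4.49 at P0). Of 14 tested, 5 were higher and 1 lower (median 0.20), against 8.54% and 8.9% of all genes. Sult1a1, a sulfotransferase, stood at 0.200, 0.317, 0.445, 0.455 and 0.466 CPM and then at 0.680 to 2.93 CPM (median 1.95) (2.07 ± 0.42, adjusted p = 0.00992), without overlap. Klf9, a Krüppel-like factor induced by glucocorticoids and thyroid hormone, changed by 1.12 ± 0.23 (adjusted p = 0.0101) with overlap. The other 3 were Per1, Mt1 and Mt2, so these lists are not independent.

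Ribosomal protein genes were lower at P0, but the number of calls depended on which animals were included. Of 76 tested, 41 were called lower and none higher, against 8.9% and 8.54% of all genes. All 76 had a negative change (median −0.42). Rpl35 stood at 237, 258, 279.8, 283 and 421 CPM and then at 148 to 272 CPM (median 228) (−0.64 ± 0.15, adjusted p = 0.0143, but up to 0.0696 without animal 455 or 728), with overlap of the groups. None of the 76 was called without animal 455 or without animal 728, nor without the 2 deepest animals, nor within batch 3. Within batch 1, 63 were called lower, without both 728 and 730 it was 46, and without 730 alone 70. The other single animals left 4 to 42. The score was 8.58 to 9.17 at E18.5, with 728 highest, and 8.05 to 8.76 at P0, with the deepest animals 318 and 324 lowest. The 59 rows of nuclear oxidative phosphorylation genes held 5 lower and none higher (median −0.19, none called within batch 3). The share lower was close to the 8.9% of all genes. The 12 mitochondrially encoded genes were all positive (median 0.44), with 2 called, among them mt-Nd5, a subunit of complex I (0.87 ± 0.19, adjusted p = 0.0117).

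**Figure D4:**
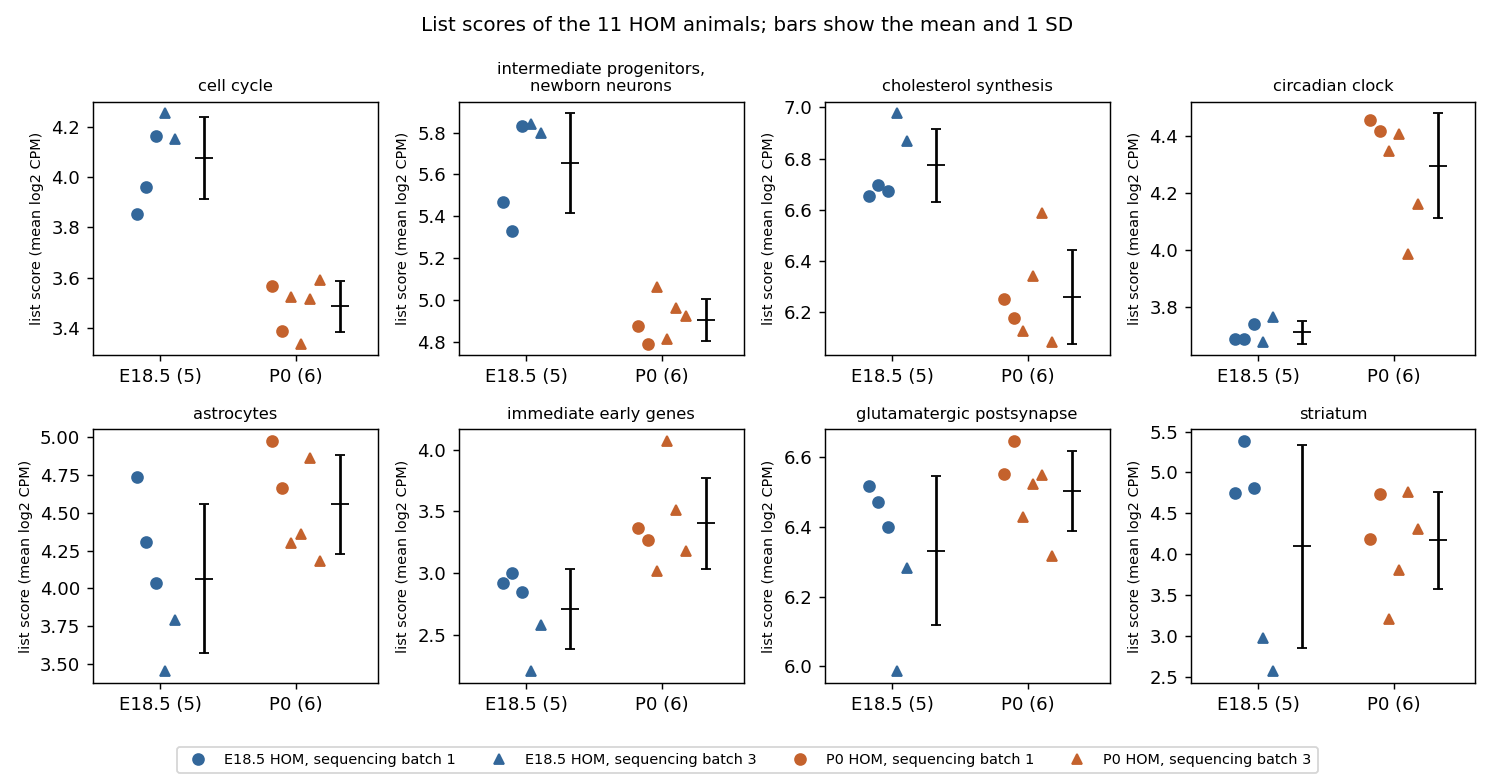
Score of 8 gene lists (mean log2 CPM of the members) in each HOM animal at E18.5 (5 animals, blue) and P0 (6 animals, orange), with circles for sequencing batch 1, triangles for batch 3 and bars for the mean ± 1 SD. The cell cycle, intermediate progenitor, cholesterol, clock and immediate early gene scores are apart between the ages, while the striatum score splits the E18.5 animals by batch.

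The NOTCH and WNT pathways, which control progenitor maintenance and patterning, had called genes in both directions. Of 32 NOTCH genes, 3 were higher and 3 lower (median 0.093), which is near the 8.54% and 8.9% of all genes. Mfng, a glycosyltransferase that tunes NOTCH receptors, stood at 9.43, 9.58, 14.9, 20.4 and 22.2 CPM and then at 5.14 to 9.32 CPM (median 7.57) (−1.01 ± 0.20, adjusted p = 0.00864), and Jag2, a ligand, at 43.9, 48.4, 49.96, 50.6 and 69.02 and then 73.1 to 106 CPM (median 81.95) (0.71 ± 0.15, adjusted p = 0.0123). The groups were apart in both. The receptor gene Notch2 changed by −0.74 ± 0.19 (adjusted p = 0.0218, but up to 0.0736 with 1 animal left out, the call being lost for 3 of the 11 animals), while Notch1 was at 0.03 ± 0.15 (adjusted p = 0.897) and its target Hes1 at 0.34 ± 0.19 (adjusted p = 0.233), not called. Of 52 WNT genes, 9 were higher and 5 lower (median 0.29). The receptor genes split, with Fzd2 going from 15.2, 15.97, 17.03, 17.5 and 20.7 CPM to 7.43 to 9.12 CPM (median 8.30) (−0.93 ± 0.13, adjusted p = 0.00327) and Fzd4 from 4.64, 5.84, 5.86, 5.87 and 7.07 CPM to 7.52 to 11.8 CPM (median 10.1) (0.89 ± 0.17, adjusted p = 0.00888), each without overlap. Fzd3, a receptor of axon guidance, changed by −0.57 ± 0.13 (adjusted p = 0.0129, but 0.0554 without animal 455), the co-receptor Lrp5 by −0.84 ± 0.17 (adjusted p = 0.00892), and Notum, which inactivates WNT ligands, by 1.02 ± 0.24 (adjusted p = 0.0151, but 0.054 without animal 455). The targets Axin2 and Lef1 were not called, with Axin2 at 0.19 ± 0.16 (adjusted p = 0.424). With 1 animal left out, 2 to 12 WNT genes were higher and 2 to 6 lower.

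Whether these changes with age differed by genotype was tested in a fit of all 32 animals of both ages. No gene of 19047 passed for the difference between HOM and WT (0%) or between HOM and HET (0%) with edgeR. At an unadjusted p under 0.05 there were 986 and 696. DESeq2 also called none, with 1102 and 775 at an unadjusted p under 0.05. With limma voom on unsummed libraries and the animal as block, 115 genes passed for WT and 2 for HET, and without the filter on low counts 185 and 169. In simulated counts for the difference from WT, 47 of 98 genes changed by 1 log2 unit and 86 of 100 changed by 2 were recovered. The change with age itself was called in 5173 genes in HOM, 6854 in HET and 2527 in WT, with 4 WT animals at P0. Of the 3100 genes called in HOM above, 3084 had the same sign in HET (99.5%) and 2983 in WT (96.2%), against 82.7% and 78.9% of all genes. Their median size was 0.65 in HOM, in whose data they were chosen, 0.59 in HET and 0.40 in WT.

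**Figure D5:**
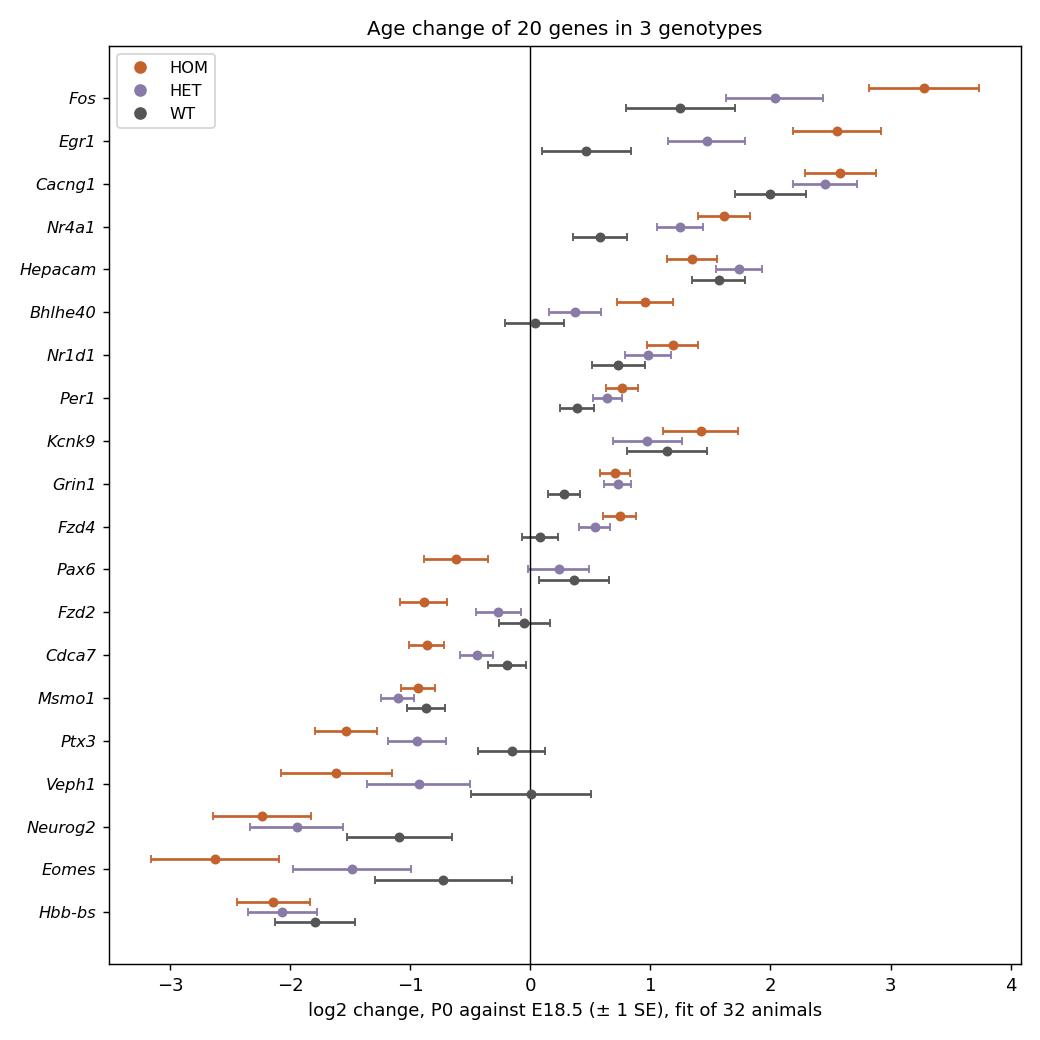
Log2 change from E18.5 to P0 (± 1 SE) of 20 genes in HOM, HET and WT animals, from the fit of all 32 animals. Msmo1 and Hbb-bs lie close together in the 3 genotypes, and Egr1 lies at 2.55 in HOM, 1.47 in HET and 0.47 in WT.

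The lists that led the HOM changes can be set beside the controls. The cell cycle median was −0.55 in HOM, −0.36 in HET and −0.18 in WT, and 32, 20 and 4 of the 42 genes were called lower. Of all 19047 genes, 13.4% were lower in HOM, 18% in HET and 6.5% in WT. For single genes the difference from WT had an unadjusted p under 0.05 in 8 of the 42 and the difference from HET in 2, against 5.18% and 3.65% of all genes. The share of genes reaching this against WT was largest for oligodendrocyte precursors (7 of 14), endothelium (7 of 18) and mural cells (5 of 14). Their median differences from WT were positive, at 0.29, 0.36 and 0.43 log2 units. For the difference from HET, 0, 4 and 0 of their genes had an unadjusted p under 0.05, and the medians were 0.072, 0.33 and −0.036. These lists were picked from all lists for their high counts and were not tested as sets. No single gene passed the adjusted threshold, so a difference by genotype was not shown for them. The cholesterol medians were −0.54, −0.75 and −0.76, the intermediate progenitor medians −0.47, −0.43 and −0.40, and the clock medians 0.55, 0.38 and 0.41. The astrocyte medians were 0.46, 0.81 and 0.81. The radial glia medians were −0.17, 0.065 and 0.077.

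Single genes with the smallest p for a difference were weakly expressed. Gm44812 differed from WT by −3.60 ± 0.77, p = 6.15e-05, adjusted p = 0.687, Gm29683 by −4.86 ± 1.10, p = 0.000126, adjusted p = 0.687 and Gm5118 by 2.51 ± 0.59, p = 0.000203, adjusted p = 0.687. Their levels stayed under 2 CPM in all 32 animals. For HET the smallest p were those of Gm29683 (−3.77 ± 0.97, p = 0.000511, adjusted p = 0.993), Ccdc170 (2.43 ± 0.64, p = 0.000641, adjusted p = 0.993) and Gm11944 (0.71 ± 0.19, p = 0.000994, adjusted p = 0.993). Among the genes named above, Egr1 had a small p against WT, with an age change of 2.55 ± 0.37 in HOM, 1.47 ± 0.32 in HET and 0.47 ± 0.37 in WT (difference 2.08 ± 0.52, p = 0.00037, adjusted p = 0.687). Its levels were 5.73 to 8.27 CPM (median 7.21) at E18.5 and 7.64 to 14.5 CPM (median 9.70) at P0 in WT, against 3.06 to 10.2 CPM (median 6.28) and 10.96 to 79.9 CPM (median 34.7) in HOM. Ptx3 changed by −1.53 ± 0.26 in HOM, −0.94 ± 0.24 in HET and −0.15 ± 0.28 in WT (difference from WT −1.38 ± 0.38, p = 0.00117, adjusted p = 0.687). In the E18.5 animals it was at 2.53 to 6.77 CPM (median 4.27) in WT and 7.66 to 12.4 CPM (median 9.47) in HOM, and these ranges did not overlap. Cdca7 changed by −0.86 ± 0.15 in HOM, −0.45 ± 0.14 in HET and −0.19 ± 0.16 in WT (difference from WT −0.67 ± 0.22, p = 0.00449, adjusted p = 0.848). None of these differences passed the adjusted threshold.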

How the data were processed

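Bulk RNA sequencing was measured in whole cortex at E18.5 and prefrontal cortex at P0. The authors deposited raw counts of reads per gene for each library, in a table of 55483 genes, and every column was mapped to a sample (0 not mapped). Per the study's methods libraries kept strand, and the submitters' processing notes name STAR, DESeq2 and mm10. Which tool counted the reads, and with which strand setting, is not given in the sources used here. The deposited normalised counts, and the table of the authors' comparisons with fold changes and p-values, were not used.

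Libraries of an animal were summed. Labels give no litter, so p-values measure the spread between these animals. Counts were filtered with filterByExpr, scaled by TMM and tested with the quasi-likelihood F test of edgeR 4.0.16 in R 4.3.3, with sequencing batch and sex as covariates. P-values were 2-sided and adjusted by Benjamini-Hochberg over all genes tested, with calls under 0.05. The scale of log2 CPM used a prior count of 2. Differences between genotypes were tested in 1 fit of 32 animals. Alternatives used DESeq2 1.42.0, limma 3.58.1, other covariates, filters, scalings, thinned counts, single batches or sexes, and each animal left out.

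The members and the 46 gene lists were chosen with earlier results of these data known. Lists were described by counts and medians and were not tested as sets. Genes named were Myt1l and its relatives, the 12 largest rises and 12 largest falls (no overlap of the groups, mean log2 CPM from 1 upwards), the 5 members of lowest p in each list, defining members of lists, and the 3 genes with the smallest p for each difference between genotypes. The largest changes exclude predicted genes, pseudogenes, Y-linked genes and Xist. Not all genes that meet the rule are reported. On simulated counts of the age change, 70 of 98 genes changed by 1 log2 unit and 95 of 97 changed by 2 were recovered. Promoter sequences are those of RefSeq in GRCm38.p6, and motifs were searched on both strands.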

Additional observations from a re-analysis of the deposited data

Results flagged for a closer look

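Single animals stood apart from the rest of their group in 27 of 460 sets of values (46 list scores and 184 genes at both ages), by Dixon's test at its 95% limit. Chance alone marks about 1 set in 20. List scores are means of log2 CPM, and gene levels are CPM.

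The E18.5 animal 728, of batch 3, had a ribosomal protein score of 9.17 (others 8.58 to 8.73), with Rpl34 at 433 CPM and Rpl35 at 421 CPM, a MYT family score of 5.66 (others 5.96 to 6.00) and an autism risk score of 6.79. The other E18.5 animal of that batch, 730, had Jag2 at 69.0 CPM and Notum at 1.95 CPM. Animal 454 had Fam107a at 2.80 CPM (others 0.346 to 0.931) and an ependyma score of 0.486, and animal 461 had Nfia at 111 CPM.

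At P0, animal 671 had Fos at 27.4 CPM (others 4.19 to 11.7), Nr4a1 at 48.6 CPM (others 14.6 to 21.4) and Tek, an endothelial receptor, at 6.20 CPM. Animal 690 had a hypoxia and glycolysis score of 6.27 (others 5.57 to 5.68), Tfrc at 55.2 CPM (others 103 to 125), Mbp at 33.9 CPM and Myh11, a smooth muscle myosin, at 0.587 CPM. Animal 701 had a subplate score of 2.93 (others 3.23 to 3.30), an axon growth score of 7.42, Gabra5 at 92.4 CPM, Klf9 at 12.9 CPM and Lrp5 at 15.3 CPM. The deeply sequenced animal 324 had Ttr at 37.3 CPM (others 0.201 to 2.12), Plagl1 at 26.4 CPM, Nhlh2 at 7.67 CPM and Scn1a at 44.3 CPM, and animal 318 had Hepacam at 31.2 CPM.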

How the results depend on the processing

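The number of genes called over age, 3100, was 5066 with batch as the only covariate, 5173 in the fit of all 32 animals, 4785 within batch 1, 1257 within batch 3 and 9 in males only. In alternatives chosen after seeing the data it was 1181 without the 2 deepest animals and 1810 without the E18.5 animals of batch 3. With 1 animal left out it ranged from 1086 to 4073. With unsummed libraries and the animal as a replicate block it was 4153 (correlation within animals 0.874). The labels pair no animals across ages, so no other block was possible. Genes whose age change differed from WT numbered 185 without the filter on low counts (177 of them among the genes that pass it) and 115 with the replicate block, and from HET 169 (148) and 2, against 0 otherwise and 0 to 0 with 1 animal left out. The cause was not tested. Of the 158 genes called and examined singly, 81 kept the call whichever animal was left out, and all 158 kept their direction. Animal 728 cost the most calls (67), then 455 (52) and 318 (45). In other alternatives 1 gene turned, Ttr at −1.16 in males only. With counts thinned to the smallest animal total, 2446 genes were called. The count of lists with a median above 0 was 28 of 46 and stayed within 1.5 times of that. This count can hold while single lists change sign. The median changed sign in 12 of the 46 lists in females only, in 12 within batch 1 and in 12 without the E18.5 animals of batch 3. With no covariate it did so in 8.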

Other observations

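Genes of hypoxia and glycolysis, fatty acid use and muscle had called members in small numbers, in shares close to or under the 8.54% higher and 8.9% lower of all genes. Of 28 genes of the hypoxia response and glycolysis, 3 were called higher and 2 lower (median −0.24), but 12 were lower without P0 animal 690 and none without 455 or 728. Within batch 1, 11 were lower, and within batch 3, 1 was (median −0.044). Pfkp, the platelet form of phosphofructokinase, changed by 1.11 ± 0.25 (adjusted p = 0.0138), and Eno2, the neuronal enolase, by 0.53 ± 0.14 (adjusted p = 0.0269, but up to 0.0751 without animal 728 or 318). Hk2, an inducible hexokinase, changed by −0.76 ± 0.20 (adjusted p = 0.0219, but up to 0.0801 with 1 animal left out, the call being lost for 5 of the 11 animals), and Ndrg1, a gene induced by low oxygen, by −0.61 ± 0.14 (adjusted p = 0.0151, but up to 0.0624 without animal 455 or 728). Of 24 genes of fatty acid and ketone use, 2 were higher and 1 lower (median −0.045), with Cpt2, a carnitine acyltransferase of the inner mitochondrial membrane, at −0.58 ± 0.18 (adjusted p = 0.0432, but up to 0.142 with 1 animal left out, the call being lost for 9 of the 11 animals). Of 21 interferon and antigen presentation genes, 3 were higher and none lower (median 0.31), with Tap1, a peptide transporter, at 0.80 ± 0.22 (adjusted p = 0.0284, but up to 0.0921 with 1 animal left out, the call being lost for 3 of the 11 animals).

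Muscle genes, a non-neuronal group, had 2 of 20 higher and 1 lower (median 0.47). Ryr2, a calcium release channel of heart and brain, stood at 10.2, 18.3, 19.8, 20.8 and 27.8 CPM at E18.5 and at 29.7 to 51.8 CPM (median 43.03) at P0, higher in every P0 animal (1.20 ± 0.19, adjusted p = 0.0045). Casq1, a calcium store protein, changed by −1.08 ± 0.34 (adjusted p = 0.0448, but up to 0.137 with 1 animal left out, the call being lost for 8 of the 11 animals), and Ttn, titin, was at 0.66 ± 0.34 and not called (adjusted p = 0.187). Of 51 autism risk genes, 1 was higher and 2 lower (median −0.048), against 8.54% and 8.9% of all genes. They were Deaf1, a transcription factor (0.72 ± 0.11, adjusted p = 0.00428), Bcl11a, a zinc finger factor of projection neurons that went from 282, 339, 353, 359 and 413 CPM to 198 to 262 CPM (median 226) (−0.63 ± 0.11, adjusted p = 0.00699), and Reln, given above.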
